A study of Mus musculus with 14 samples.

Results

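Regulatory T cells that carry PD-1 were compared with cells labelled CD4 T cells from the same kind of mouse tumour, by RNA sequencing of sorted cells. The comparison used 10 of the 14 libraries of the series, namely the 5 libraries of PD-1+ Tregs and the 5 libraries of CD4 T cells, picked by the population named in their labels. In each population 3 libraries came from mice given an antibody against PD-L1 (clone MIH5) and 2 from mice given an isotype control antibody (clone 2A3). The 4 libraries of PD-1- Tregs were left out of the fit. Every group shared the same host and tumour: female C57BL/6 mice of 8 to 12 weeks with the genotype GATIR Foxp3Cre-rfp Gata3Cre-yfp, in which a red fluorescent protein reports Foxp3, with AE17-OVA tumours under the skin. AE17 is a mesothelioma of the mouse, and OVA stands for the model antigen ovalbumin. Each mouse received 200 µg of antibody on day 10 by intraperitoneal injection. Tumours were harvested at day 13, which the labels count in one place from treatment and in another leave unqualified. Cells were separated by flow cytometry on 4 features, CD4, CD25, the reporter and PD-1. The labels give no gates. It is therefore unknown whether the CD4 T cells were chosen on PD-1 as well, or whether Tregs were kept out of them. Smart-seq2, a full-length cDNA protocol without molecular identifiers, was used for the libraries. The submitters call the replicates biological, but no label ties a library to a mouse or a pool of mice. A p-value therefore sets a difference only against the spread between these libraries, which may be technical.

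Tregs are CD4 T cells that depend on the transcription factor Foxp3 and hold other T cells in check. They keep CD25, the alpha chain of the interleukin-2 receptor, at high density, and take much of their survival signal from interleukin-2 made by other T cells. In tumours they carry a set of receptors that mark recent antigen contact and residence in tissue, among them CTLA-4, TIGIT, OX40, 4-1BB, GITR and the chemokine receptor CCR8. The other CD4 T cells, called helper or conventional cells, range from resting cells that recirculate through lymphoid organs to effector cells that make cytokines. Resting and memory cells depend on transcription factors such as TCF-1, LEF-1 and KLF2, the last of which drives the exit receptor S1PR1. PD-1 is an inhibitory receptor of activated T cells, and PD-L1 is its ligand on tumour cells, myeloid cells and some T cells.

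The genes behind the sort were read first, and they check the labels only. Il2ra, which encodes CD25 (NCBI gene 16184, chromosome 2, 11642792 to 11693194, mouse genome build GRCm38.p6), stood at 272 and 299 CPM in isotype and 190.2, 387 and 373 CPM in treated PD-1+ Tregs, against 13.7 and 13.5 CPM in isotype and 38.8, 79.9 and 76.3 CPM in treated CD4 T cells. Here and below a level is in counts per 1000000 (CPM) on library sizes scaled by TMM. No CD4 T cell library reached the lowest PD-1+ Treg library. Foxp3 did not set the populations apart, with 15.9 and 94.0 CPM in isotype and 30.8, 155 and 44.7 CPM in treated PD-1+ Tregs, against 16.1 and 20.9 CPM in isotype and 36.3, 28.0 and 54.0 CPM in treated CD4 T cells (log2 fold change 1.20 ± 0.57, adjusted p = 0.323). The first isotype PD-1+ Treg library was below every CD4 T cell library for Foxp3, and the lowest treated PD-1+ Treg library was below the highest treated CD4 T cell library. Pdcd1, which encodes PD-1, averaged 158 ± 70.9 CPM in PD-1+ Tregs and 148 ± 88.8 CPM in CD4 T cells (SD, n = 5 each), and the populations overlapped (0.22 ± 0.28, adjusted p = 0.822). Cd4 averaged 193 ± 68.3 CPM in PD-1+ Tregs and 382 ± 89.0 CPM in CD4 T cells (-0.99 ± 0.24, adjusted p = 0.0784), with an overlap, and Cd274, the gene of PD-L1, averaged 35.6 ± 22.8 CPM in PD-1+ Tregs and 30.5 ± 12.5 CPM in CD4 T cells (0.17 ± 0.63, adjusted p = 0.959), also with an overlap.

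Some features of the libraries moved with the populations, and they are given here before the results. Total counts per library ran from 11246084 to 13552040 in PD-1+ Tregs and from 12930566 to 15030804 in CD4 T cells. Genes with a count numbered 10609.8 ± 641 in PD-1+ Tregs, against 13489 ± 869 in CD4 T cells (SD, n = 5 each), with no overlap (exact two-sided permutation test within treatment, p = 0.0167, the smallest that 120 assignments allow, 0.0458 adjusted over 11 measures). Replicates of PD-1+ Tregs were also less alike, with r across genes of 0.714 to 0.788, against 0.906 to 0.957 in CD4 T cells (genes are not independent replicates). Reads of 4 Y-linked genes appeared in the third treated library of each population, although the labels give all mice as female. Without these 2 libraries the comparison below called 65 genes. In bulk samples like these, fewer cells of a type and less RNA of a gene per cell cannot be told apart.

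PD-1+ Tregs and CD4 T cells differed in 190 of 13338 genes tested (1.42%), of which 90 were higher (0.675%) and 100 lower (0.750%) in PD-1+ Tregs. A gene is called here where its adjusted p was under 0.05 in edgeR's quasi-likelihood F-test with treatment as a covariate and Benjamini-Hochberg adjustment over all genes tested. Changes are log2 fold changes of PD-1+ Tregs over CD4 T cells, with their standard error after ±, and all adjusted p-values of single genes come from this test. An unadjusted p under 0.05 was found for 2221 genes, where 666.9 are expected by chance. Of the 190 called genes, 168 had every library of a population above every library of the other, and over all genes tested 223 (1.67%) were higher and 641 (4.81%) lower in PD-1+ Tregs without overlap. The median change over all genes tested was -0.21. In 724 genes tested every PD-1+ Treg library was at 0, against 10 genes at 0 in every CD4 T cell library, which moved with the lower number of genes detected in PD-1+ Tregs. Each of the 190 genes kept its direction under each of 25 of the 26 other settings, and in the fit of genes with at least 10 CPM the 176 that were tested did.

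The number of calls depended on single libraries. Only 16 of 64 called genes picked by the rule for naming were called in every fit that left out 1 library. Left out 1 at a time, the CD4 T cell libraries left 36 to 87 calls (36 without isotype replicate 2, 41 without isotype replicate 1, 44 without treated replicate 1, 81 without treated replicate 3 and 87 without treated replicate 2). The isotype PD-1+ Treg libraries left 78 calls without replicate 1 and 107 without replicate 2, and the treated ones 141 to 209. With the summed macrophage markers as a covariate, 39 genes were called, all of them among the 190.

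**Figure D1:**
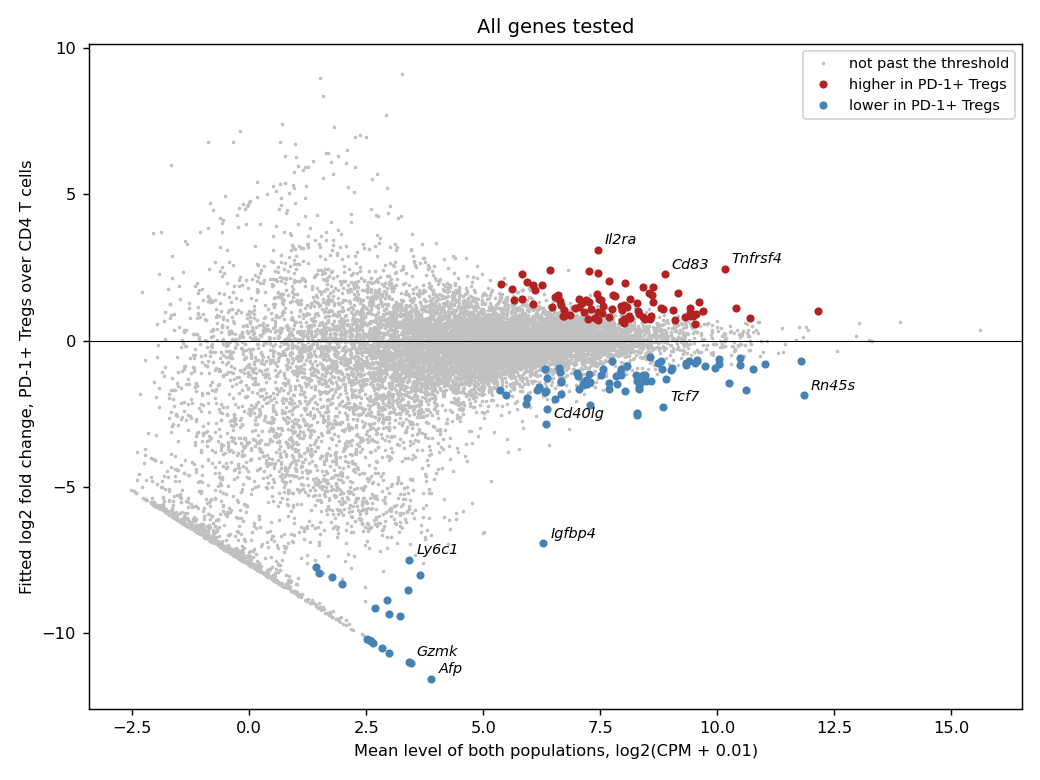
Fitted log2 fold change of PD-1+ Tregs over CD4 T cells (y axis) against the mean level of both populations as log2(CPM + 0.01) (x axis), 1 point for each of 13338 genes tested, with the 90 genes called higher in red and the 100 called lower in blue. The red points reach 3.10 at Il2ra, while the lowest blue points are genes with at most 6 counts in PD-1+ Tregs, and those with 0 counts lie on the diagonal edge.

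Of 14 Treg identity genes tested, 6 were called higher in PD-1+ Tregs (Il2ra, Ikzf2, Ctla4, Capg, Nrp1 and Tnfrsf18) and none lower. The share called higher over all genes was 0.675%, and the list's median change was 1.30, beside -0.21 over all genes. Il2ra belongs to the sort and counts as no finding. Without the 2 libraries with Y-linked reads 3 members were called, without the isotype PD-1+ Treg library of low Foxp3 5 were, and with macrophage markers as a covariate 2 were.

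Ikzf2 encodes Helios, a transcription factor of the Ikaros family that most thymus-derived Tregs carry (NCBI gene 22779, chromosome 1, 69531207 to 69687351). Its levels were 286 and 381 CPM in isotype and 588, 342 and 448 CPM in treated PD-1+ Tregs, against 64.6 and 62.5 CPM in isotype and 129, 124 and 180.4 CPM in treated CD4 T cells. Every PD-1+ Treg library was above every CD4 T cell library, and within CD4 T cells the treated libraries were above the isotype ones (change 1.96 ± 0.22, adjusted p = 0.00357, and 0.0205 without CD4 T cell isotype replicate 2, the largest when any 1 library was left out).

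Ctla4 encodes the inhibitory receptor that takes CD80 and CD86 off antigen-presenting cells (NCBI gene 12477, chromosome 1, 60909025 to 60915832). It stood at 617 and 321 CPM in isotype and 701, 479.9 and 912 CPM in treated PD-1+ Tregs, against 85.4 and 109 CPM in isotype and 212, 184 and 318 CPM in treated CD4 T cells. The populations did not overlap, though the second isotype PD-1+ Treg library was just above the highest CD4 T cell library (change 1.84 ± 0.27, adjusted p = 0.012, and 0.0517 without CD4 T cell isotype replicate 2). Capg, an actin-capping protein, averaged 1803 ± 391.98 CPM in PD-1+ Tregs and 889 ± 371 CPM in CD4 T cells (SD, n = 5 each), with an overlap (1.11 ± 0.18, adjusted p = 0.0177). Nrp1, a semaphorin and VEGF co-receptor found on thymus-derived Tregs, averaged 435 ± 89.6 CPM in PD-1+ Tregs and 184 ± 67.1 CPM in CD4 T cells, without overlap (1.29 ± 0.23, adjusted p = 0.0231). Tnfrsf18, which encodes the costimulatory receptor GITR, averaged 1069 ± 265 CPM in PD-1+ Tregs and 481 ± 236 CPM in CD4 T cells, with an overlap (1.30 ± 0.24, adjusted p = 0.0296). With 1 library left out, the calls of Capg, Nrp1 and Tnfrsf18 were lost in 3, 6 and 5 of 10 fits.

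The members of the identity list that missed the threshold included both directions. Lrrc32, which encodes GARP, the surface anchor of latent TGF-beta, averaged 47.3 ± 27.5 CPM in PD-1+ Tregs and 10.7 ± 7.44 CPM in CD4 T cells without overlap, but with a wide error (2.15 ± 0.77, adjusted p = 0.194). Ikzf4, which encodes the Ikaros-family factor Eos, averaged 64.0 ± 31.2 CPM in PD-1+ Tregs and 25.1 ± 12.3 CPM in CD4 T cells (1.44 ± 0.57, adjusted p = 0.23), and Izumo1r, the folate receptor 4 of Tregs and follicular helper cells, 486 ± 275 CPM in PD-1+ Tregs and 221 ± 14.5 CPM in CD4 T cells (0.98 ± 0.32, adjusted p = 0.165). Gpr83 was the member with a change below 0, at 4.28 ± 7.82 CPM in PD-1+ Tregs and 11.0 ± 4.46 CPM in CD4 T cells (-2.20 ± 1.66, adjusted p = 0.625).

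Among 11 tested receptors of the TNF receptor superfamily, which costimulate T cells, Tnfrsf4 and Tnfrsf9 were called higher and none lower. The share of all genes called higher was 0.675%, and the median of the list was -0.05, beside -0.21 over all genes. Tnfrsf4 encodes OX40, a receptor that sustains T cells after antigen contact (NCBI gene 22163, chromosome 4, 156013595 to 156016613). It stood at 1796 and 1348 CPM in isotype and 2039, 1809 and 2472 CPM in treated PD-1+ Tregs, against 189 and 168 CPM in isotype and 391.9, 485 and 694 CPM in treated CD4 T cells. The lowest PD-1+ Treg library was far above the highest CD4 T cell library (change 2.46 ± 0.25, adjusted p = 0.0026, and 0.0147 without CD4 T cell treated replicate 2). The gene overlaps Sdf4 in the annotation, which was also called higher (0.85 ± 0.14, adjusted p = 0.0154), and whether strand was used in counting is not given.

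Tnfrsf9 encodes 4-1BB, another receptor induced by antigen contact (NCBI gene 21942, chromosome 4, 150920155 to 150946104). Its levels were 239 and 175 CPM in isotype and 398, 292 and 323 CPM in treated PD-1+ Tregs, against 36.8 and 24.4 CPM in isotype and 91.5, 47.0 and 111 CPM in treated CD4 T cells. There was no overlap, and the change was 2.31 ± 0.28 (adjusted p = 0.00443, and 0.0233 without CD4 T cell isotype replicate 1). Cd27, a costimulatory receptor of resting and memory T cells, averaged 248 ± 77.1 CPM in PD-1+ Tregs and 287 ± 59.8 CPM in CD4 T cells (-0.20 ± 0.23, adjusted p = 0.792), and Tnfrsf1b, which encodes the TNF receptor 2 of activated Tregs, averaged 84.1 ± 24.7 CPM in PD-1+ Tregs and 91.8 ± 38.0 CPM in CD4 T cells (-0.05 ± 0.22, adjusted p = 0.968). Both overlapped and neither passed the test.

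**Figure D2:**
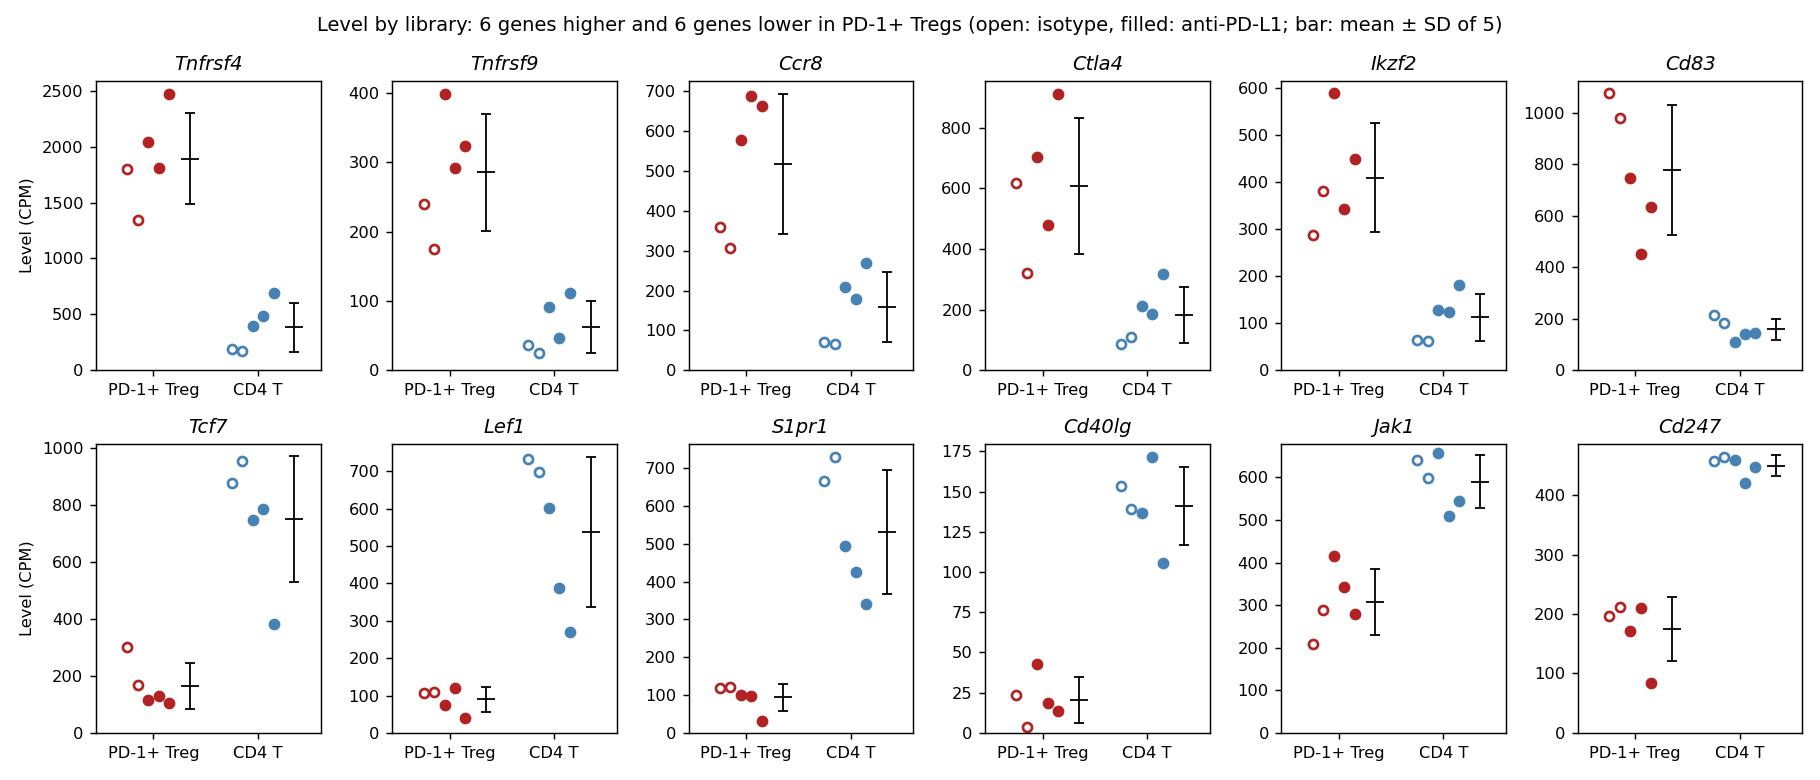
Level in CPM (y axis, from 0) of 6 genes called higher (top) and 6 called lower (bottom) in each of the 5 PD-1+ Treg libraries (red) and the 5 CD4 T cell libraries (blue), open points for isotype and filled points for anti-PD-L1, with bars for the mean ± SD. In each of the 12 panels the 5 red points lie on 1 side of the 5 blue points; the blue isotype points are the lowest of their population for Tnfrsf4, Tnfrsf9, Ccr8, Ctla4 and Ikzf2 and the highest for Tcf7, Lef1 and S1pr1.

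Of 16 tested genes that Tregs of tissues and tumours express, 4 were called higher in PD-1+ Tregs (Ccr8, Il1r2, Tnfrsf9 and Cd83) and none lower. The other 12 did not pass, and 15 of the 16 had a change above 0, with a median of 1.49. All genes tested had a median of -0.21, with 0.675% called higher. The 4 calls held without the 2 libraries with Y-linked reads and with macrophage markers as a covariate, where 4 members of the list were called each time.

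Ccr8 encodes the receptor of the chemokines CCL1 and CCL8 and marks Tregs of tumours (NCBI gene 12776, chromosome 9, 120092133 to 120094906). It stood at 359 and 306 CPM in isotype and 578, 688 and 663 CPM in treated PD-1+ Tregs, against 70.3 and 66.2 CPM in isotype and 209, 179 and 269.8 CPM in treated CD4 T cells. No library of CD4 T cells reached the lowest of PD-1+ Tregs, and in both populations the treated libraries were above the isotype ones (change 1.84 ± 0.18, adjusted p = 0.00245, and 0.0137 without CD4 T cell treated replicate 1). Il1r2, the decoy receptor that binds interleukin-1 without a signal, stood at 246 and 121 CPM in isotype and 241, 257 and 394 CPM in treated PD-1+ Tregs, against 26.1 and 23.3 CPM in isotype and 52.3, 72.7 and 89.7 CPM in treated CD4 T cells (NCBI gene 16178, chromosome 1, 40084692 to 40125230). The lowest PD-1+ Treg library was above the highest CD4 T cell library (change 2.39 ± 0.29, adjusted p = 0.00443, and 0.0245 without CD4 T cell treated replicate 1).

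Cd83, a surface protein of activated lymphocytes and mature dendritic cells, had the smallest adjusted p of the genes called higher (NCBI gene 12522, chromosome 13, 43785112 to 43803133). Its levels were 1076 and 981 CPM in isotype and 746, 454 and 636 CPM in treated PD-1+ Tregs, against 214 and 184 CPM in isotype and 111, 140.1 and 146 CPM in treated CD4 T cells. The gap between the populations was wide, and in both the isotype libraries were the highest (change 2.27 ± 0.16, adjusted p = 0.000278, and 0.00266 without CD4 T cell isotype replicate 2). Cd83 is also a gene of dendritic cells. Summed markers of dendritic cells and MHC class II were 33649 ± 11026 CPM in PD-1+ Tregs and 22359 ± 5763 CPM in CD4 T cells (exact two-sided permutation p = 0.0833, 0.183 adjusted). Most of this sum was Cd74, at 18619 CPM in PD-1+ Tregs and 12026 CPM in CD4 T cells. Of the 15 markers 9 had a change above 0 and 6 below. The part of these markers in the Cd83 difference was not tested.

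Other members of the tissue list did not pass. Klrg1, an inhibitory lectin receptor of terminally differentiated T cells and of tissue Tregs, averaged 176 ± 80.8 CPM in PD-1+ Tregs and 47.3 ± 41.3 CPM in CD4 T cells and came near the threshold (2.41 ± 0.52, adjusted p = 0.0527). Il1rl1, which encodes the interleukin-33 receptor ST2, averaged 46.9 ± 28.1 CPM in PD-1+ Tregs and 15.9 ± 7.90 CPM in CD4 T cells (1.54 ± 0.71, adjusted p = 0.311). Ccr4 was the member with a change below 0, at 10.2 ± 19.5 CPM in PD-1+ Tregs and 12.2 ± 6.85 CPM in CD4 T cells (-0.91 ± 1.46, adjusted p = 0.872).

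Of 12 tested genes for molecules with which Tregs suppress other cells, Fgl2 was called higher and none lower, with a median change of 1.06. All genes tested had 0.675% called higher and a median of -0.21. Fgl2 encodes a fibrinogen-like protein secreted by Tregs and macrophages, and stood at 258 and 273 CPM in isotype and 938, 590.2 and 981 CPM in treated PD-1+ Tregs, against 119 and 123 CPM in isotype and 381, 385 and 402 CPM in treated CD4 T cells. The populations overlapped over both treatments because the isotype PD-1+ Treg libraries were below the treated CD4 T cell libraries, but within each treatment they did not (change 1.11 ± 0.15, adjusted p = 0.00622, and 0.0353 without CD4 T cell isotype replicate 2). Fgl2 lies within Ccdc146 in the annotation. Il10, the suppressive cytokine, averaged 52.997 ± 44.8 CPM in PD-1+ Tregs and 15.8 ± 15.4 CPM in CD4 T cells (1.78 ± 0.57, adjusted p = 0.16), and Ebi3, a subunit of interleukins 27 and 35, 86.0 ± 32.7 CPM in PD-1+ Tregs and 36.0 ± 21.1 CPM in CD4 T cells (1.37 ± 0.40, adjusted p = 0.13). Entpd1, which encodes the ATP-degrading enzyme CD39, averaged 109 ± 32.7 CPM in PD-1+ Tregs and 58.9 ± 23.9 CPM in CD4 T cells (0.96 ± 0.29, adjusted p = 0.145), and Tgfb1 was low in both populations at 4.09 ± 3.36 CPM in PD-1+ Tregs and 2.82 ± 1.36 CPM in CD4 T cells (0.55 ± 1.16, adjusted p = 0.909). These 4 genes overlapped and did not pass the test.

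Of 14 transcription factors of effector Tregs tested, Nfil3 and Batf were called higher and none lower (median change 0.46). Across all genes tested 0.675% were called higher, with a median of -0.21. Nfil3, a basic leucine zipper repressor, stood at 101 and 81.0 CPM in isotype and 50.2, 85.8 and 152 CPM in treated PD-1+ Tregs, against 14.0 and 12.8 CPM in isotype and 29.9, 19.7 and 23.2 CPM in treated CD4 T cells. The groups did not overlap (change 2.29 ± 0.36, adjusted p = 0.0154, and 0.0739 without CD4 T cell isotype replicate 2). Batf, an AP-1 partner of IRF4 needed by tissue Tregs, averaged 215 ± 18.4 CPM in PD-1+ Tregs and 134 ± 25.2 CPM in CD4 T cells, without overlap, but the call was lost in 9 of 10 fits that left out 1 library (0.70 ± 0.15, adjusted p = 0.0432, and 0.18 without CD4 T cell isotype replicate 1). No member of this list was called without the 2 libraries with Y-linked reads. Gata3, Irf4 and Prdm1, further regulators of effector Tregs, gave 0.84 ± 0.23, 0.60 ± 0.70 and 0.32 ± 1.03 and did not pass (adjusted p = 0.112, 0.798 and 0.95).

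Among 12 inhibitory receptors tested, Tigit and Ctla4 were called higher and none lower (median change 0.34). For this and the next list, the share of all genes called higher was 0.675% and their median change -0.21. Tigit, a receptor that competes with CD226 for CD155, stood at 311 and 337 CPM in isotype and 813, 596 and 764 CPM in treated PD-1+ Tregs, against 84.2 and 81.7 CPM in isotype and 266, 242 and 397 CPM in treated CD4 T cells. The isotype PD-1+ Treg libraries were below the highest treated CD4 T cell library, so the populations overlapped over both treatments but not within either (change 1.54 ± 0.19, adjusted p = 0.00557, and 0.0341 without CD4 T cell isotype replicate 2). The gene overlaps Zbtb20 in the annotation. Lag3 and Havcr2, which encodes TIM-3, averaged 42.7 ± 34.0 CPM in PD-1+ Tregs and 29.8 ± 16.4 CPM in CD4 T cells (0.54 ± 1.08, adjusted p = 0.903) and 33.9 ± 33.0 CPM in PD-1+ Tregs and 13.1 ± 7.79 CPM in CD4 T cells (0.05 ± 1.56, adjusted p = 0.998). Of 11 members of the CD28 family and other costimulatory molecules, Ctla4 and Cd81 were called higher and none lower (median change 0.03). Cd81, a tetraspanin of many leukocytes, stood at 612 and 717 CPM in isotype and 1051, 762 and 1178 CPM in treated PD-1+ Tregs, against 304 and 272 CPM in isotype and 297, 156 and 353 CPM in treated CD4 T cells. No overlap was seen (change 1.62 ± 0.24, adjusted p = 0.012, and 0.049 without CD4 T cell treated replicate 1). Icos and Cd28, the costimulatory receptors themselves, gave 0.51 ± 0.13 and -0.41 ± 0.15 and did not pass (adjusted p = 0.0832 and 0.208).

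Of 16 genes of the interleukin-2 receptor and its STAT5 pathway tested, Il2ra and Pim1 were called higher and Jak1 lower, and the median change was 0.02. The shares over all genes were 0.675% called higher and 0.750% called lower, and the median was -0.21. Il2rb and Il2rg, the signalling chains of the receptor, averaged 162 ± 60.8 CPM in PD-1+ Tregs and 167 ± 97.8 CPM in CD4 T cells (0.03 ± 0.25, adjusted p = 0.986) and 3805 ± 948 CPM in PD-1+ Tregs and 3469 ± 721 CPM in CD4 T cells (0.11 ± 0.14, adjusted p = 0.826). Jak1, the kinase bound to the beta chain, stood at 208 and 289 CPM in isotype and 416, 342 and 279.9 CPM in treated PD-1+ Tregs, against 641 and 599 CPM in isotype and 656, 509 and 545 CPM in treated CD4 T cells. All PD-1+ Treg libraries were below all CD4 T cell libraries (change -0.96 ± 0.17, adjusted p = 0.0271, and 0.105 without CD4 T cell treated replicate 1). Pim1, a kinase induced by STAT5, averaged 263 ± 144 CPM in PD-1+ Tregs and 93.1 ± 32.7 CPM in CD4 T cells, with an overlap (1.44 ± 0.28, adjusted p = 0.0353, and 0.126 without CD4 T cell treated replicate 1). Pim1 and Jak1 were not called without the 2 libraries with Y-linked reads. Cish and Socs2, feedback inhibitors that STAT5 induces, gave 1.17 ± 0.45 and 1.46 ± 0.62, and Socs1 gave -0.996 ± 0.26 with no overlap; none of the 3 passed (adjusted p = 0.22, 0.264 and 0.101).

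Of 19 genes of resting and central T cells tested, 6 were called lower in PD-1+ Tregs (Tcf7, S1pr1, Lef1, Igfbp4, Ly6c1 and Klf2) and none higher. All 19 had a change below 0, with a median of -1.68. With DESeq2's size factors all 19 did with a median of -1.64. Without overlap 8 of the 19 were lower, beside 4.81% of all genes. The share of all genes called lower was 0.750%, and their median change was -0.21. Without the 2 libraries with Y-linked reads 4 members were called lower, without the isotype PD-1+ Treg library of low Foxp3 5 were, and with macrophage markers as a covariate 3 were.

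Tcf7 encodes TCF-1, the factor that keeps T cells in a resting or memory state (NCBI gene 21414, chromosome 11, 52246527 to 52283383). It stood at 302 and 169.5 CPM in isotype and 115, 129 and 104 CPM in treated PD-1+ Tregs, against 879 and 957 CPM in isotype and 750.3, 787 and 385 CPM in treated CD4 T cells. The highest PD-1+ Treg library was below the lowest CD4 T cell library (change -2.26 ± 0.24, adjusted p = 0.00301, and 0.0143 without PD-1+ Treg isotype replicate 2). Skp1 overlaps it in the annotation. Lef1, the partner of TCF-1 in the same family (NCBI gene 16842, chromosome 3, 131110297 to 131224357), stood at 108 and 109.6 CPM in isotype and 73.7, 119.8 and 39.3 CPM in treated PD-1+ Tregs, against 733 and 698 CPM in isotype and 601, 387 and 271 CPM in treated CD4 T cells. Again no library overlapped (change -2.55 ± 0.30, adjusted p = 0.00443, and 0.0217 without PD-1+ Treg isotype replicate 2).

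S1pr1 encodes the receptor that follows sphingosine-1-phosphate out of tissue into lymph and blood (NCBI gene 13609, chromosome 3, 115710433 to 115715055). Its levels were 119.95 and 121 CPM in isotype and 99.7, 96.8 and 32.3 CPM in treated PD-1+ Tregs, against 666 and 729.9 CPM in isotype and 495, 424 and 341 CPM in treated CD4 T cells. The highest PD-1+ Treg library was far below the lowest CD4 T cell library (change -2.49 ± 0.28, adjusted p = 0.00357, and 0.02 without CD4 T cell isotype replicate 2). Klf2, the factor that drives S1pr1, averaged 32.7 ± 12.4 CPM in PD-1+ Tregs and 109 ± 39.1 CPM in CD4 T cells, also without overlap, but its call was lost in 9 of 10 fits that left out 1 library (-1.68 ± 0.34, adjusted p = 0.0415, and 0.151 without CD4 T cell treated replicate 1).

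Igfbp4, whose product binds insulin-like growth factors, stood at 11.3 and 16.1 CPM in isotype and 0.0850, 0 and 0.0952 CPM in treated PD-1+ Tregs, against 237 and 237 CPM in isotype and 146, 64.9 and 62.6 CPM in treated CD4 T cells (adjusted p = 0.0177). The treated PD-1+ Tregs held 2 counts in all, so the fitted fold is not given. Ly6c1, a surface protein of memory and effector T cells, averaged 0.105 ± 0.107 CPM in PD-1+ Tregs and 21.2 ± 10.7 CPM in CD4 T cells and held 6 counts in all PD-1+ Treg libraries together (adjusted p = 0.0231). Ccr7, a lymph node homing receptor, averaged 202 ± 110.0 CPM in PD-1+ Tregs and 539.8 ± 333 CPM in CD4 T cells (-1.34 ± 0.43, adjusted p = 0.159), and Il7r, the interleukin-7 receptor, 147 ± 153 CPM in PD-1+ Tregs and 273 ± 115 CPM in CD4 T cells (-1.44 ± 0.67, adjusted p = 0.31). Both genes overlapped and did not pass.

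Receptors for homing were called in both directions. Among 17 chemokine receptors and homing molecules tested, Ccr8 was called higher and S1pr1 and Selplg lower, and the median change was -0.88. Of all genes, 0.675% were called higher and 0.750% lower, with a median of -0.21. Selplg encodes PSGL-1, the selectin ligand, and averaged 622 ± 296 CPM in PD-1+ Tregs and 1086 ± 319 CPM in CD4 T cells, with an overlap (-0.88 ± 0.15, adjusted p = 0.0198, and 0.0789 without CD4 T cell isotype replicate 2). Cxcr3 and Cxcr6, receptors of effector T cells that enter inflamed tissue, averaged 290.2 ± 172 CPM in PD-1+ Tregs and 488 ± 293 CPM in CD4 T cells (-0.71 ± 0.17, adjusted p = 0.0735) and 382 ± 279 CPM in PD-1+ Tregs and 685 ± 474 CPM in CD4 T cells (-0.68 ± 0.22, adjusted p = 0.167). Ccr2, a receptor of monocytes and activated T cells, gave 0.41 ± 0.18, adjusted p = 0.298. None of 14 integrins and adhesion molecules was called, among them Cd44, at 374 ± 121 CPM in PD-1+ Tregs and 375 ± 143 CPM in CD4 T cells, and Itgb7, a partner of the alpha 4 and alpha E integrins, which was lower without overlap (-0.85 ± 0.23, adjusted p = 0.107).

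Of 16 tested genes of the T cell receptor complex and its first signalling steps, 4 were called lower in PD-1+ Tregs, among them Cd247, Lat and Cd3e, and none higher. The other 12 did not pass. Of the 16, 14 had a change below 0 and 8 were lower without overlap, and the median change was -0.56. Over all genes 0.750% were called lower and 4.81% were lower without overlap, with a median change of -0.21. Cd247 encodes the zeta chain that carries the signal of the receptor (NCBI gene 12503, chromosome 1, 165779952 to 165871153). It stood at 197 and 213 CPM in isotype and 171, 210.4 and 84.5 CPM in treated PD-1+ Tregs, against 458 and 464 CPM in isotype and 458, 420.4 and 447 CPM in treated CD4 T cells. CD4 T cell libraries lay close together and far above all PD-1+ Treg libraries (change -1.37 ± 0.22, adjusted p = 0.0154, and 0.0604 without CD4 T cell isotype replicate 2). The gene overlaps Pou2f1 in the annotation.

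Lat, the membrane scaffold of receptor signalling, averaged 1037 ± 200.0 CPM in PD-1+ Tregs and 1842 ± 211 CPM in CD4 T cells, and Cd3e, a chain of the CD3 complex, averaged 309 ± 61.9 CPM in PD-1+ Tregs and 449.7 ± 66.3 CPM in CD4 T cells (SD, n = 5 each), both without overlap. Their changes were -0.83 ± 0.15, adjusted p = 0.0253 for Lat and -0.56 ± 0.12, adjusted p = 0.0471 for Cd3e. The calls were lost in 5 and 9 of 10 fits that left out 1 library.

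The rest of the receptor list did not pass. Lck and Zap70, the kinases that act first, gave -0.53 ± 0.14, adjusted p = 0.0912 and -0.98 ± 0.23, adjusted p = 0.07, each lower without overlap. Cd3d and Cd3g, further CD3 chains, gave -0.16 ± 0.20, adjusted p = 0.81 and -0.12 ± 0.11, adjusted p = 0.74, with overlaps. The sum of 6 T cell markers (Cd3d, Cd3e, Cd3g, Cd247, Cd4 and Lck) was 4211 ± 631 CPM in PD-1+ Tregs and 5707 ± 351 CPM in CD4 T cells, with no overlap (exact two-sided permutation p = 0.0167, 0.0458 adjusted over 11 measures). Without the 2 libraries with Y-linked reads 2 of the 16 genes were called, without the isotype PD-1+ Treg library of low Foxp3 1 was, and with macrophage markers as a covariate 0 were.

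Of 20 tested genes induced by receptor signalling, Tox and Nfkbia were called higher and none lower (median change 0.06). Over all genes 0.675% were called higher. Tox, a nuclear factor of T cells under lasting antigen contact, averaged 305 ± 44.3 CPM in PD-1+ Tregs and 192 ± 19.4 CPM in CD4 T cells, and Nfkbia, an inhibitor of NF-kappa B that NF-kappa B induces, averaged 878 ± 74.6 CPM in PD-1+ Tregs and 599 ± 67.0 CPM in CD4 T cells, both without overlap. The changes were 0.67 ± 0.14, adjusted p = 0.0463 and 0.56 ± 0.11, adjusted p = 0.0406. With 1 library left out, the call was lost in 10 of 10 fits for Tox and in 9 of 10 for Nfkbia, and neither was called without the 2 libraries with Y-linked reads. Nr4a1 and Egr2, early targets of receptor signals, gave 0.05 ± 0.30, adjusted p = 0.982 and -0.03 ± 0.57, adjusted p = 0.998.

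Helper functions were measured through cytokines, cytotoxic genes and lineage genes. Of 16 helper cytokines and TNF ligands tested, Cd40lg was called lower and none higher, with a median change of -0.98. Among all genes 0.750% were called lower, and the median was -0.21. Cd40lg encodes CD40 ligand, through which helper T cells license B cells and dendritic cells (NCBI gene 21947, chromosome X, 57212143 to 57224042). It stood at 23.6 and 3.68 CPM in isotype and 42.6, 18.4 and 13.9 CPM in treated PD-1+ Tregs, against 154 and 139 CPM in isotype and 136, 171 and 106 CPM in treated CD4 T cells. No overlap was seen, and the call was lost in 7 of 10 fits that left out 1 library (change -2.85 ± 0.52, adjusted p = 0.0266, and 0.081 without CD4 T cell treated replicate 1). Ltb, which encodes lymphotoxin beta, averaged 3276 ± 276 CPM in PD-1+ Tregs and 3256 ± 662 CPM in CD4 T cells (0.01 ± 0.12, adjusted p = 0.989). Il2 averaged 6.09 ± 8.69 CPM in PD-1+ Tregs and 10.5 ± 3.31 CPM in CD4 T cells (-2.13 ± 2.06, adjusted p = 0.733) and Ifng, which encodes interferon gamma, 12.3 ± 6.27 CPM in PD-1+ Tregs and 35.9 ± 21.2 CPM in CD4 T cells (-1.29 ± 0.68, adjusted p = 0.393), both with overlaps. Il17a, Il17f and Il5 had no count in any PD-1+ Treg library, and in CD4 T cells they averaged 0.828, 1.08 and 0.772 CPM. None of them passed (adjusted p = 0.304, 0.18 and 0.301). Every PD-1+ Treg library was at 0 in 724 genes tested, so these zeros do not single out the cytokines.

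Of 19 Th1 and cytotoxic genes, Gzmk was called lower and none higher (median change -0.71). Across all genes tested 0.750% were called lower, with a median of -0.21. Gzmk, a granzyme of memory-like cytotoxic and helper T cells (NCBI gene 14945, chromosome 13, 113171630 to 113180965), had no count in any PD-1+ Treg library, against 9.97 and 7.93 CPM in isotype and 13.4, 12.7 and 62.7 CPM in treated CD4 T cells. Against a floor of 3 counts per library, its mean level was at least 84.5-fold lower in PD-1+ Tregs (adjusted p = 0.0353, and 0.129 without CD4 T cell treated replicate 3). Without that library the bound was 43.5-fold. Floors and intervals cover counting error only. Fasl, the death ligand of effector T cells, averaged 20.3 ± 13.8 CPM in PD-1+ Tregs and 107 ± 57.6 CPM in CD4 T cells without overlap (-2.28 ± 0.95, adjusted p = 0.255). Eomes, a regulator of cytotoxic T cells, had no count in PD-1+ Tregs and averaged 4.19 CPM in CD4 T cells (adjusted p = 0.115). Gzmb and Prf1, which encode granzyme B and perforin, averaged 76.0 ± 60.7 CPM in PD-1+ Tregs and 38.6 ± 37.5 CPM in CD4 T cells (1.75 ± 0.97, adjusted p = 0.43) and 7.67 ± 10.5 CPM in PD-1+ Tregs and 20.8 ± 9.95 CPM in CD4 T cells (adjusted p = 0.23). The treated PD-1+ Treg libraries had no count of Prf1.

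Lineage genes of the other helper types were not called. None of 12 follicular helper genes and none of 14 Th2 and Th17 genes passed, with median changes of -0.07 and -1.20. Il6ra, the interleukin-6 receptor of resting helper cells, averaged 30.7 ± 30.9 CPM in PD-1+ Tregs and 196 ± 97.1 CPM in CD4 T cells, lower without overlap (-3.03 ± 0.78, adjusted p = 0.0934). Bcl6, the factor of follicular helper cells, averaged 71.2 ± 32.2 CPM in PD-1+ Tregs and 82.2 ± 14.2 CPM in CD4 T cells (-0.23 ± 0.39, adjusted p = 0.884).

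The 15 largest falls among genes with at least 10 CPM in the higher population and no overlap were all genes with few or no counts in PD-1+ Tregs, and their fitted folds are therefore not given. Gzmk and 8 others had no count in any PD-1+ Treg library. Afp, the fetal serum protein alpha-fetoprotein, averaged 29.6 ± 12.0 CPM in CD4 T cells (n = 5) and was at least 117-fold lower in PD-1+ Tregs (adjusted p = 0.0154). Plekhf1, an endosomal phosphoinositide-binding protein, was at least 87.3-fold lower, and Dph2, an enzyme of diphthamide synthesis, at least 63.1-fold lower. The ubiquitin ligase gene Rnf144a, the Nogo receptor relative Rtn4rl1, the amino acid transporter gene Slc38a4, the ephrin gene Efna5 and the adhesion gene Amigo2 were at least 56.5-, 49.5-, 48.1-, 46.9- and 45.3-fold lower. The calls of these 5 genes were lost in 8 or 9 of 10 fits that left out 1 library, and those of Afp, Plekhf1 and Dph2 in 4, 5 and 7. Of these 8 genes only Afp was called without the 2 libraries with Y-linked reads. For Hid1, 1 count in PD-1+ Tregs stood against 1318 counts in CD4 T cells, a ratio of CD4 T cells over PD-1+ Tregs of 1134 with a 95% counting interval from 203 to 44815. Zfp758 had 2 counts against 1064, a ratio of 458 (interval 126 to 3784). Ggt1 and Sema4f had 1 count each in PD-1+ Tregs, against 1090 and 866 in CD4 T cells, with lower interval bounds of 168 and 133. Tprn and Enpp4 had 5 and 6 counts in PD-1+ Tregs, against 1450 and 1731 in CD4 T cells. The number of genes detected, which was lower in every PD-1+ Treg library, moved with this group, and its part was not tested.

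Of 20 mitosis genes tested, 6 were called higher in PD-1+ Tregs (Top2a, Ccnb2, Aurkb, Kif20a, Birc5 and Ccnb1) and none lower. All 20 had a change above 0, with a median of 1.08. With DESeq2's size factors all 20 did with a median of 1.12. Without overlap 10 of the 20 were higher, beside 1.67% of all genes. The share of all genes called higher was 0.675%, and their median change was -0.21. The calls were less firm than the direction: 2 were left without the 2 libraries with Y-linked reads, 1 without the isotype PD-1+ Treg library of low Foxp3 and 0 with macrophage markers as a covariate, where all 20 changes stayed above 0.

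The promoters of 4 of the 6 called mitosis genes are shown because cell cycle genes of the G2 and M phases are known to carry CCAAT boxes, bound by NF-Y, and CHR elements with the letters TTTGAA, bound by the DREAM and MuvB complexes. Those of Aurkb and Kif20a are not shown. Each stretch runs from 250 bases before to 50 after a start given by RefSeq (GRCm38.p6), 5′ to 3′ along the gene's strand. For Top2a that start lies just inside the end of the gene's full span. Capitals mark CCAAT and TTTGAA on either strand. Top2a lies at chr11:99024140-99024439 on the minus strand, Ccnb2 at chr9:70421505-70421804 on the minus strand, Ccnb1 at chr13:100786437-100786736 on the minus strand and Birc5 at chr11:117848987-117849286 on the plus strand.
Top2a: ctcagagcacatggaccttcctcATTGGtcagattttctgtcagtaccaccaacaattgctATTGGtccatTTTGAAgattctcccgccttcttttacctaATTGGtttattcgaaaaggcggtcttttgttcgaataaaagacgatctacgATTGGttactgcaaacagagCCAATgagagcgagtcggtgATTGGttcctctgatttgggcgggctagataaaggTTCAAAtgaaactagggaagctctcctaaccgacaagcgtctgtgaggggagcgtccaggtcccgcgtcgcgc
Ccnb2: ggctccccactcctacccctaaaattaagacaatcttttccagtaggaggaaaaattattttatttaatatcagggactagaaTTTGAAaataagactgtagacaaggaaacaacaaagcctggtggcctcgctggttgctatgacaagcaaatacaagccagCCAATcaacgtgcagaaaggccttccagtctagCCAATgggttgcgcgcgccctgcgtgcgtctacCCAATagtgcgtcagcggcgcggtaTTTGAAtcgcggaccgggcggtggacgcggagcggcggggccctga
Ccnb1: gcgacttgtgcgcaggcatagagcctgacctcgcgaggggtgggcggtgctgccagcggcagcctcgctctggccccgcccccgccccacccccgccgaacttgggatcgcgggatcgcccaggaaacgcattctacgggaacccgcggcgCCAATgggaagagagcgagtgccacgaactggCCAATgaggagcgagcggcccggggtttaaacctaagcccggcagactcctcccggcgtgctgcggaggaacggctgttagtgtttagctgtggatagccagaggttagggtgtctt
Birc5: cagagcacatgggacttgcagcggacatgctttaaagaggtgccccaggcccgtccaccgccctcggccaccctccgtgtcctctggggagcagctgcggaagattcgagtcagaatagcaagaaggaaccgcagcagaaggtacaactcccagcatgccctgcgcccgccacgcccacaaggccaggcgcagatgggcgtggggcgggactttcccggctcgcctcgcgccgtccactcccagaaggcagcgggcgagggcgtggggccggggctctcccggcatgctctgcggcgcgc
The Top2a promoter held 6 CCAAT and 2 TTTGAA matches, that of Ccnb2 3 and 2, that of Ccnb1 2 and 0, and that of Birc5 none of either. Of the 16 mitosis genes with a promoter in the table, 14 held CCAAT (87.5%) and 11 held TTTGAA (68.8%), and 11 held both. Among all 27025 promoters given by RefSeq, 37.9% held CCAAT, 18.1% TTTGAA and 7.12% both, and among the 10492 of genes tested 38.8%, 12.3% and 5.06% did. Of the 70 promoters of genes called higher, which include the called mitosis genes, 47.1% held CCAAT, 21.4% TTTGAA and 14.3% both. Another motif, TGANTCA, the AP-1 site to which BATF pairs bind, was in 2.86% of the promoters of genes called higher, in 3.90% of those of the 77 genes called lower, in 5.10% of those of genes tested and in 7.93% of all. A match describes letters in this window only.

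Top2a encodes DNA topoisomerase II alpha, which untangles sister chromatids (NCBI gene 21973, chromosome 11, 98992947 to 99024199). It stood at 183 and 257 CPM in isotype and 256, 412 and 537 CPM in treated PD-1+ Tregs, against 103 and 91.3 CPM in isotype and 80.7, 152 and 117 CPM in treated CD4 T cells. The isotype and treated PD-1+ Treg libraries were all above the CD4 T cell libraries (change 1.55 ± 0.26, adjusted p = 0.0177, and 0.0653 without CD4 T cell isotype replicate 2). Ccnb2, which encodes the mitotic cyclin B2, stood at 304 and 193 CPM in isotype and 199.8, 259 and 264 CPM in treated PD-1+ Tregs, against 131 and 114 CPM in isotype and 131, 109 and 149 CPM in treated CD4 T cells. There was no overlap, and the call was lost in 7 of 10 fits that left out 1 library (change 0.94 ± 0.18, adjusted p = 0.0319, and 0.127 without CD4 T cell isotype replicate 2).

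Ccnb1, which encodes cyclin B1, averaged 83.2 ± 18.5 CPM in PD-1+ Tregs and 31.0 ± 7.52 CPM in CD4 T cells (1.42 ± 0.30, adjusted p = 0.0455). Aurkb, the kinase of the chromosomal passenger complex, averaged 146 ± 71.3 CPM in PD-1+ Tregs and 48.4 ± 8.50 CPM in CD4 T cells (1.55 ± 0.31, adjusted p = 0.0385), and its partner Birc5, which encodes survivin, averaged 214 ± 46.9 CPM in PD-1+ Tregs and 99.9 ± 23.995 CPM in CD4 T cells (1.09 ± 0.22, adjusted p = 0.043). Kif20a, a kinesin of cytokinesis, averaged 122 ± 29.4 CPM in PD-1+ Tregs and 55.1 ± 8.15 CPM in CD4 T cells (1.15 ± 0.24, adjusted p = 0.043) and overlaps Brd8 and Cdc23 in the annotation. All 4 were without overlap, and each call was lost in 8 or 9 of 10 fits that left out 1 library. Mki67, the gene of the division marker Ki-67, was not called, at 95.3 ± 51.1 CPM in PD-1+ Tregs and 62.5 ± 13.8 CPM in CD4 T cells (0.56 ± 0.31, adjusted p = 0.436), and Cdk1, the mitotic kinase, averaged 118 ± 44.0 CPM in PD-1+ Tregs and 44.5 ± 5.99 CPM in CD4 T cells (1.39 ± 0.32, adjusted p = 0.0695).

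Of 20 DNA replication genes, Mcm6 and Rrm1 were called higher and none lower, 18 had a change above 0, and the median was 0.70. The median over all genes was -0.21, and 0.675% of them were called higher. Mcm6, a subunit of the replicative helicase, stood at 379 and 433 CPM in isotype and 415, 521 and 420.0 CPM in treated PD-1+ Tregs, against 232 and 216 CPM in isotype and 277, 248 and 278 CPM in treated CD4 T cells. Its lowest PD-1+ Treg library was above its highest CD4 T cell library (change 0.80 ± 0.12, adjusted p = 0.0132, and 0.0739 without CD4 T cell isotype replicate 2). Rrm1, the large subunit of ribonucleotide reductase, averaged 219 ± 52.2 CPM in PD-1+ Tregs and 88.9 ± 19.6 CPM in CD4 T cells, without overlap (1.30 ± 0.21, adjusted p = 0.0164). Both were called without the 2 libraries with Y-linked reads and without the isotype PD-1+ Treg library of low Foxp3. Neither was called with macrophage markers as a covariate (adjusted p = 0.0681 for Mcm6 and 0.0700 for Rrm1). Pcna and Mcm3, the sliding clamp and another helicase subunit, did not overlap but missed the threshold (0.66 ± 0.17, adjusted p = 0.0946 and 0.74 ± 0.23, adjusted p = 0.145). Spc24 and Cenps, both among the 15 largest rises, also belong to chromosome segregation, as parts of the NDC80 complex and of a centromere and DNA repair complex. Spc24 averaged 120.3 ± 39.5 CPM in PD-1+ Tregs and 31.5 ± 8.43 CPM in CD4 T cells (1.89 ± 0.26, adjusted p = 0.00653) and Cenps averaged 65.5 ± 14.7 CPM in PD-1+ Tregs and 17.5 ± 6.58 CPM in CD4 T cells (1.94 ± 0.35, adjusted p = 0.0257), both without overlap. The call of Cenps was lost in 7 of 10 fits that left out 1 library, without the 2 libraries with Y-linked reads (adjusted p = 0.0608) and with macrophage markers as a covariate (0.0973). That of Spc24 was kept in each of them. It was lost with the replicate number as a block (adjusted p = 0.0547) and in a fit of all 14 libraries (0.46).

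The other genes among the 15 largest rises were of mixed kinds. Penk, which encodes the enkephalin precursor and is known from Tregs of tissues, stood at 398 and 339.9 CPM in isotype and 332, 311 and 256 CPM in treated PD-1+ Tregs, against 49.0 and 49.6 CPM in isotype and 115, 71.7 and 139 CPM in treated CD4 T cells. All PD-1+ Treg libraries were above all CD4 T cell libraries, and in PD-1+ Tregs the isotype libraries were the highest (change 2.03 ± 0.30, adjusted p = 0.012, and 0.0538 without CD4 T cell isotype replicate 2). Rln3, a relaxin-family hormone gene, averaged 139.6 ± 34.5 CPM in PD-1+ Tregs and 32.1 ± 22.5 CPM in CD4 T cells (2.42 ± 0.38, adjusted p = 0.0154), and BC028528, a protein-coding gene without a named role here, averaged 97.5 ± 22.8 CPM in PD-1+ Tregs and 24.5 ± 6.26 CPM in CD4 T cells (2.00 ± 0.28, adjusted p = 0.00791). Gm6637, annotated in RefSeq as a transcribed pseudogene, averaged 73.3 ± 22.2 CPM in PD-1+ Tregs and 25.2 ± 15.4 CPM in CD4 T cells (1.76 ± 0.37, adjusted p = 0.0456), and its reads may be shared with the gene it copies. The call of Gm6637 was lost in 9 of 10 fits that left out 1 library and that of Rln3 in 3. Gm6637 was not called without the 2 libraries with Y-linked reads (adjusted p = 0.0951). BC028528 was not called with the replicate number as a block (adjusted p = 0.0504) or in a fit of all 14 libraries (0.18). The 4 genes did not overlap between the populations.

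In the metabolic gene lists no gene was called higher. Of 19 glycolysis genes Hk1 was called lower (median change -0.10), and of 21 sterol and fatty acid synthesis genes Srebf2 was called lower (median change -0.14). Over all genes 0.750% were called lower. Hk1, a hexokinase, averaged 47.9 ± 5.93 CPM in PD-1+ Tregs and 116 ± 30.5 CPM in CD4 T cells (-1.28 ± 0.24, adjusted p = 0.0312), and Srebf2, which encodes the sterol-sensing factor SREBP2, averaged 27.5 ± 17.7 CPM in PD-1+ Tregs and 94.3 ± 12.7 CPM in CD4 T cells (-1.98 ± 0.42, adjusted p = 0.0469), both without overlap. Neither was called without the 2 libraries with Y-linked reads. Hk2, another hexokinase, averaged 49.1 ± 24.7 CPM in PD-1+ Tregs and 23.6 ± 6.43 CPM in CD4 T cells (1.07 ± 0.50, adjusted p = 0.311), and did not pass. None of 20 respiratory chain genes and none of 20 cytosolic ribosomal protein genes was called, with median changes of 0.32 and -0.15.

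Interferon responses, apoptosis genes and stress genes gave 1 call. None of 20 type I interferon response genes, of 20 interferon-gamma response genes or of 17 p53 and apoptosis genes was called, with median changes of -0.59, 0.02 and -0.14. Ifit1, an antiviral gene that type I interferon induces, averaged 60.1 ± 23.0 CPM in PD-1+ Tregs and 147 ± 75.1 CPM in CD4 T cells, lower without overlap (-1.27 ± 0.34, adjusted p = 0.106). Irf1, a mediator of interferon gamma signals, gave -0.11 ± 0.34, adjusted p = 0.948. Of 16 immediate-early and heat shock genes, which also rise when tissue is dissociated, Junb was called lower and none higher (median change -0.46). The share of all genes called lower was 0.750%, with a median change of -0.21. Junb, an AP-1 factor, stood at 524 and 1131 CPM in isotype and 525, 1130.1 and 346 CPM in treated PD-1+ Tregs, against 2975 and 2903 CPM in isotype and 2875, 1464 and 1799 CPM in treated CD4 T cells. The populations did not overlap, and the call was lost in 9 of 10 fits that left out 1 library (change -1.70 ± 0.33, adjusted p = 0.0372, and 0.126 without CD4 T cell treated replicate 1). Fos, its partner, averaged 834 ± 187 CPM in PD-1+ Tregs and 1089 ± 183 CPM in CD4 T cells (-0.39 ± 0.17, adjusted p = 0.272).

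**Figure D3:**
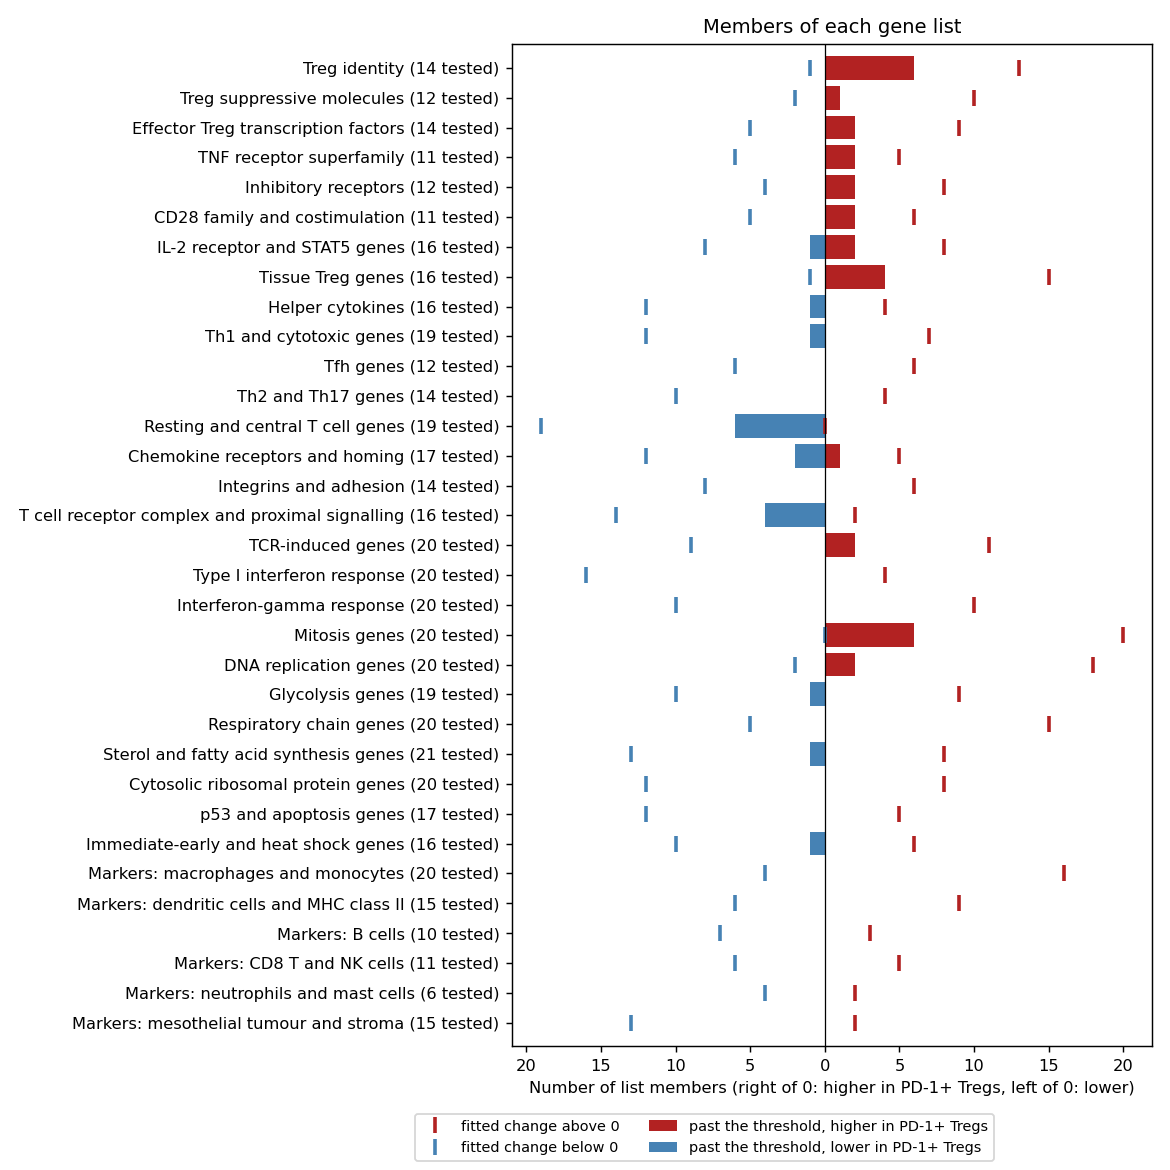
Number of members of each gene list (x axis, 0 in the middle) that passed the threshold (bars) or had a fitted change of that sign (ticks), to the right for higher and to the left for lower in PD-1+ Tregs, with the number tested beside each list name. The longest bars are the 6 calls of Treg identity and mitosis on the right and the 6 of resting and central T cell genes on the left, and the 6 marker lists of other cells at the bottom have no bar.

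Both populations held reads of marker genes of other cell types. None of their 6 lists had a called gene, and none of their sums passed the test between the populations. Markers of dendritic cells and MHC class II were the furthest apart (adjusted p = 0.183, given above for Cd83), at 20246 to 49984 CPM in PD-1+ Tregs and 15115 to 28968 CPM in CD4 T cells. Summed macrophage and monocyte markers, of which all 20 were tested and 16 had a change above 0, ran from 6533 to 10965 CPM in PD-1+ Tregs and from 4879 to 10748 CPM in CD4 T cells (exact two-sided permutation p = 0.283, 0.390 adjusted over 11 measures). B cell markers ran from 32.7 to 493 CPM in PD-1+ Tregs and from 56.4 to 264 CPM in CD4 T cells (exact permutation p = 0.85, 0.867 adjusted). Markers of CD8 T cells and NK cells ran from 301 to 412 CPM in PD-1+ Tregs and from 215 to 437 CPM in CD4 T cells, with Eomes and Klra8 at 0 in PD-1+ Tregs. On average most of this sum was Fcgr3, which is also in the macrophage list. Fcgr3 averaged 237 of 360 CPM in PD-1+ Tregs and 196 of 305 CPM in CD4 T cells. Mesothelial tumour and stroma markers ran from 411 to 1510.2 CPM in PD-1+ Tregs and from 331 to 1715 CPM in CD4 T cells, with Msln, Krt8, Krt18 and Krt19 at 0 in PD-1+ Tregs, and neutrophil and mast cell markers stayed at or under 37.9 CPM in PD-1+ Tregs and 31.5 CPM in CD4 T cells. Their part in the gene results was not tested beyond the fits with macrophage or B cell markers as a covariate.

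**Figure D4:**
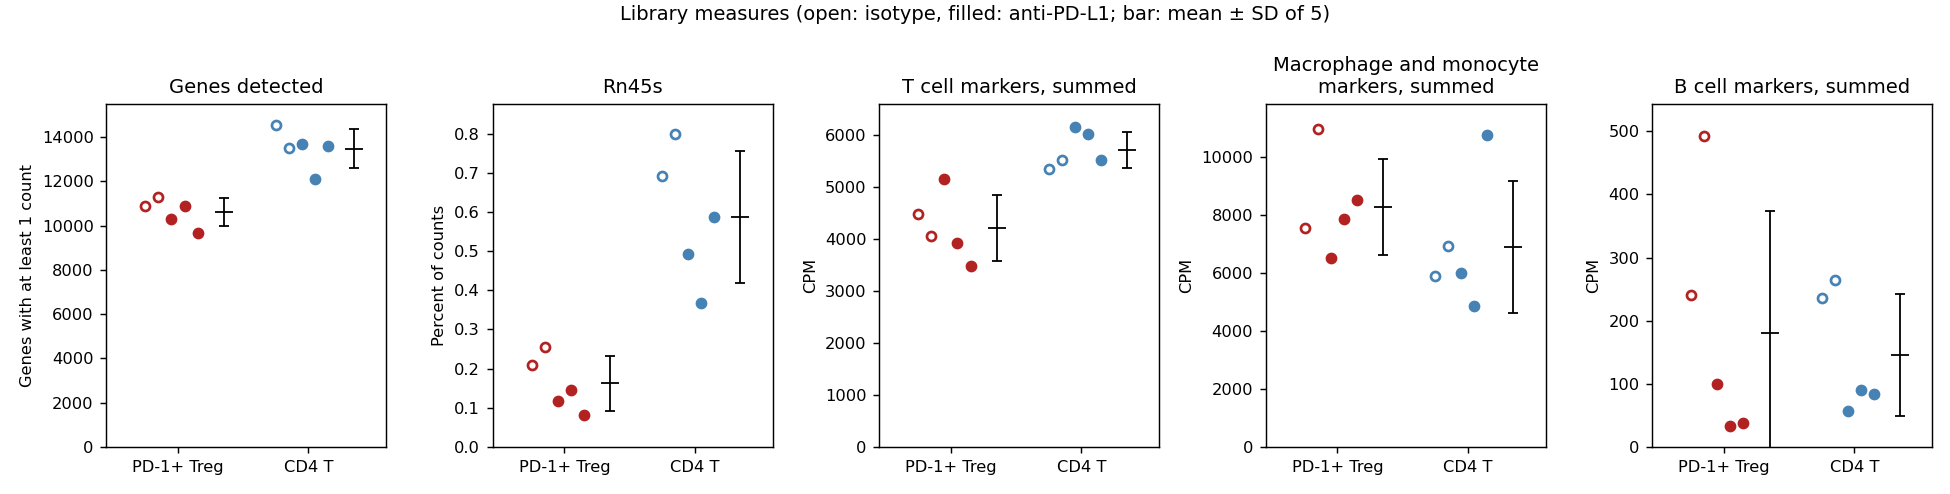
The 5 measures plotted for each library (y axes from 0, units on the axes), with the 5 PD-1+ Treg libraries in red left of the 5 CD4 T cell libraries in blue, open points for isotype and filled points for anti-PD-L1, and bars for the mean ± SD (the lower SD bar of B cell markers ends at the axis). Genes detected, the share of Rn45s and the summed T cell markers are lower in PD-1+ Tregs without overlap, while macrophage and B cell markers overlap.

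The difference between the populations was also compared between the treatments, since the series concerns PD-L1 blockade. A test of the population by treatment interaction in a fit of 4 group means called 0 genes with edgeR (0%), with 791 at an unadjusted p under 0.05, while DESeq2 called 383 and limma-voom 0. The same fit called 14 genes between the populations under isotype (0.105%), 10 higher and 4 lower, and 10 genes under anti-PD-L1 (0.0750%), 3 higher and 7 lower. The 2 treatments share no libraries. Called under both were Ccr8, Cd83, Tnfrsf4 and Ms4a4b, which is 28.6% of the isotype calls and 40.0% of the anti-PD-L1 calls. Of the 14 isotype calls 12 had the same sign under anti-PD-L1, and all 10 anti-PD-L1 calls had the same sign under isotype, beside 60.7% of all genes tested.

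For Tnfrsf4 the change was 3.14 ± 0.30 under isotype and 2.01 ± 0.23 under anti-PD-L1 (adjusted p of the interaction 0.821 in edgeR). Ccr8 gave 2.28 ± 0.24 under isotype and 1.55 ± 0.19 under anti-PD-L1, and Cd83 gave 2.37 ± 0.26 and 2.21 ± 0.21. Ms4a4b, a surface protein of the MS4A family in T cells, was lower by both, at -1.34 ± 0.17 under isotype and -1.54 ± 0.14 under anti-PD-L1. None of these differences between treatments passed the test. Igfbp4, picked after its values were seen, as it ranked first among list members for the interaction, held 13.7 CPM in isotype and 0.0601 CPM in treated PD-1+ Tregs, against 237 and 91.3 CPM in CD4 T cells (adjusted p = 0.288 for the interaction in edgeR).

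**Figure D5:**
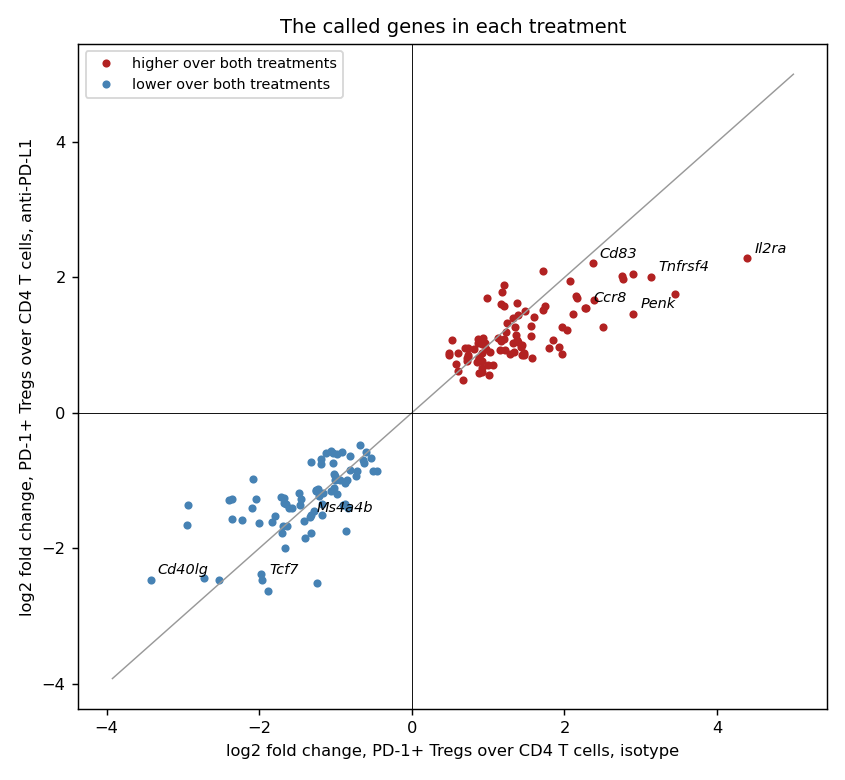
Log2 fold change of PD-1+ Tregs over CD4 T cells under isotype (x axis) and under anti-PD-L1 (y axis) for the 169 called genes with at least 1 CPM in each of the 4 groups, red for the 90 higher and blue for the 79 lower over both treatments, with the line of equal change. All 169 points lie in the lower left or upper right quadrant, and 61 of the 90 red points and 44 of the 79 blue points had the larger size of change under isotype. The genes were called over both treatments together, which favours the same sign in each, so their shared sign is no separate result. Over all genes tested 60.7% had the same sign.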

How the data were processed

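RNA from sorted tumour T cells was sequenced after Smart-seq2. Per the submitters' processing notes the tools were HISAT2 2.0.4, SAMtools, HOMER 3.12 and DESeq2, with build mm10; no source used here states their roles, the annotation or whether strand was counted. The authors deposited raw read counts per gene and RPKM values, in which counts are scaled by the authors per gene length and library total; which length and total is not stated. The counts were the basis of every main result, and RPKM served an alternative only.

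Of 25124 genes, 13338 passed edgeR's filterByExpr (minimum count 10). edgeR 4.0.16 (R 4.3.3) fitted treatment and population with TMM, robust quasi-likelihood F-tests and Benjamini-Hochberg adjustment at 0.05. A second fit of 4 group means tested the contrast in each treatment and the interaction. Standard errors are the log2 fold change divided by the square root of F. Library measures were tested by exact permutation within treatment. On simulated data of this comparison with 12763 genes, the fit recovered 6 of 50 genes changed 2-fold, 24 of 50 at 4-fold, 37 of 50 at 8-fold and 45 of 50 at 16-fold, with 3 false calls. The simulation gave each gene the same spread in both populations and changed only genes above a set level. In the data PD-1+ Treg replicates were less alike, so recovery and false calls may differ there. DESeq2 1.42.0 and limma 3.58.1 were alternatives. Python 3.11.15 with numpy 2.4.6, pandas 2.3.3 and matplotlib 3.10.9 made the remaining values and plots.

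Gene names, positions and promoters came from RefSeq, GRCm38.p6. The genes named are those of the sort and treatment, the 15 largest rises and falls among called genes with at least 10 CPM in the higher population and no overlap, and members of 33 gene lists (495 distinct genes, of which 3 were not in the table and 16 not tested). The rule took 4 called members per list and direction; called members beyond that, and uncalled members, were picked after their values were seen. Some of these genes are not reported here. The comparison, its members and the lists were chosen with earlier results of these data known. Total counts limit precision as counting error only, since reads without molecular identifiers are not independent molecules. Counts of 3 per library were the floor for genes at 0, and intervals are at 95%.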

Additional observations from a re-analysis of the deposited data

Results flagged for a closer look

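Reads of the Y-linked genes Ddx3y, Eif2s3y, Kdm5d and Uty, which no comparison used, summed to 260 CPM in the third treated PD-1+ Treg library and 204 CPM in the third treated CD4 T cell library. The other 8 libraries were under 1 CPM, although the labels give every mouse as female. Xist stood at 0.952 CPM in that PD-1+ Treg library and 17.5 CPM in that CD4 T cell library. No group held more than 3 libraries, so single libraries that stand apart from their group were not looked for by a rule.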

How the results depend on the processing

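Against 90 higher and 100 lower genes, DESeq2 called 550 higher and 778 lower, limma-voom 163 and 588, and limma-voom with quality weights 199 and 319. log2(RPKM + 1) gave 114 and 413 and log2(RPKM + 0.1) gave 111 and 392. Fewer were called with no treatment term (54 and 84), with macrophage markers (22 and 17) or B cell markers (53 and 63) as a covariate, in a fit of all 14 libraries (23 and 24), and without the libraries with Y-linked reads (29 and 36). Isotype libraries alone, and anti-PD-L1 libraries alone, gave 0 and 0. With 1 library left out, higher calls ran from 18 to 96 and lower calls from 18 to 113. DESeq2's size factors (102 and 86), no filter (82 and 103) and a mean of at least 10 CPM (105 and 96) stayed within 1.5 times. No named called gene turned direction under any of 26 alternatives. The causes were not tested. For the interaction DESeq2 called 383 genes, and leaving out 1 library gave 0 to 26, with 26 without isotype PD-1+ Treg replicate 2, 12 without treated replicate 2 and 1 without treated replicate 1.

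With the replicate number as a block, 21 higher and 21 lower genes were called, among them 3 of Treg identity, 4 of tissue Tregs, 3 of resting T cells, 1 of the receptor list, 1 of mitosis, 0 of DNA replication and Cd209a (adjusted p = 0.0494), a dendritic cell marker. Whether the numbers pair the libraries is not known. Same-numbered libraries of the populations deviated together with r of 0.00197 to 0.0362. With so few libraries per group, these r values cannot decide it. Of the PD-1+ Treg libraries, 4 of 5 correlated best with their own number. The 2 isotype libraries of a population deviate from their mean as mirror images. They therefore match or miss together and are not separate results. Y-linked reads above 1 CPM were found only in treated replicate 3 of PD-1+ Tregs (260 CPM) and of CD4 T cells (204 CPM). Whether same-numbered libraries share a mouse or pool was not tested, and the fit with 190 calls did not use the numbers. Paired differences of PD-1+ Tregs minus CD4 T cells were -2879 genes detected, -0.425 percent Rn45s, 1.92 percent in the top 10 genes, -1497 CPM of T cell markers and 11290.4 CPM of dendritic cell and MHC class II markers, each at an exact sign-flip p of 0.0625, the smallest possible. Unpaired differences, averaged over the treatments, were also taken with 1 library left out. They ran from -3142 to -2629 genes detected, from -0.468 to -0.413 percent Rn45s and from 1.41 to 2.21 percent in the top 10 genes. T cell markers ran from -1684 to -1268 CPM and dendritic cell and MHC class II markers from 7299 to 14711 CPM. Their permutation tests had fewer assignments and so a larger smallest p.

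Limits: PD-1+ Treg replicates were less alike than CD4 T cell replicates, changes of 2-fold were seldom recovered in simulated data, and a gene at 0 counts is not shown to be absent. Of the 186 called genes with a position, 24 overlap another protein-coding gene, and without known strand handling their reads cannot be told apart.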

Other observations

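Called genes outside the lists, chosen after their values were seen, included further genes of cell division and chromatin. H2afz, a histone variant, averaged 565 ± 132 CPM in PD-1+ Tregs and 225 ± 35.3 CPM in CD4 T cells (1.31 ± 0.15, adjusted p = 0.00366; SD, n = 5 each, edgeR here and below). Cdca8, a subunit of the chromosomal passenger complex, averaged 258 ± 74.0 CPM in PD-1+ Tregs and 84.9 ± 10.1 CPM in CD4 T cells (1.60 ± 0.20, adjusted p = 0.00596). Spc25, a partner of Spc24 in the NDC80 complex, averaged 137 ± 18.2 CPM in PD-1+ Tregs and 48.8 ± 12.6 CPM in CD4 T cells (1.49 ± 0.23, adjusted p = 0.014), and Asf1b, a histone chaperone, averaged 292 ± 69.9 CPM in PD-1+ Tregs and 137 ± 21.6 CPM in CD4 T cells (1.09 ± 0.20, adjusted p = 0.0254). No library overlapped for these 4 genes, all of them higher in PD-1+ Tregs.

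Among genes lower in PD-1+ Tregs, Ms4a4b averaged 649 ± 62.4 CPM in PD-1+ Tregs and 1779.9 ± 165 CPM in CD4 T cells and shared the smallest adjusted p of all genes (-1.46 ± 0.11, adjusted p = 0.000278). Ikzf1, the founding Ikaros factor of lymphocytes, averaged 109 ± 6.14 CPM in PD-1+ Tregs and 301 ± 60.3 CPM in CD4 T cells (-1.47 ± 0.17, adjusted p = 0.00443), so that Ikzf1 and Ikzf2 were called in opposite directions. Dgka, a kinase that removes diacylglycerol after receptor signals, averaged 154 ± 46.4 CPM in PD-1+ Tregs and 487 ± 111 CPM in CD4 T cells (-1.66 ± 0.21, adjusted p = 0.00522), and overlaps Pmel in the annotation. Rasal3, a Ras GTPase-activating protein of T cells, averaged 172 ± 35.4 CPM in PD-1+ Tregs and 476 ± 55.4 CPM in CD4 T cells (-1.47 ± 0.17, adjusted p = 0.00366). Of antigen presentation, Tap2, a subunit of the peptide transporter, averaged 211 ± 60.5 CPM in PD-1+ Tregs and 473 ± 66.3 CPM in CD4 T cells (-1.18 ± 0.22, adjusted p = 0.0328) and Tapbp, which encodes tapasin, averaged 582 ± 118 CPM in PD-1+ Tregs and 944 ± 64.0 CPM in CD4 T cells (-0.71 ± 0.13, adjusted p = 0.0295). Rn45s, the ribosomal RNA precursor, averaged 1623 ± 632 CPM in PD-1+ Tregs and 5741 ± 1512 CPM in CD4 T cells (-1.86 ± 0.18, adjusted p = 0.0021), and its level moved with the number of genes detected. None of these genes overlapped between the populations.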
